A study of Drosophila melanogaster with 5 samples.

Results

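The mir-972 to mir-979 genes are 8 microRNA hairpins that lie side by side on the X chromosome of Drosophila melanogaster. They were chosen by name, with earlier results of these data known. Every row of the deposited count table for mir-972, mir-973, mir-974, mir-975, mir-976, mir-977, mir-978 or mir-979 was taken, whatever its counts. This gave 16 mature arms of the 479 arms and 8 of the 259 hairpins in the table. All 16 arms had reads in both carcass libraries, whereas 10 of them had none in any intestine library. Detection is not compared at equal depth, as the intestine libraries held 1245713 microRNA reads together and the carcass libraries 4693498. Of the arms with enough reads to be tested, 5 of 10 members and 15 of all 222 had no intestine read.

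RNA molecules of 18 to 29 nt were cloned and sequenced, both from intestines and from the carcasses left after dissection, of wild-type adult males aged 2 to 3 days and reared on standard food; the strain was w1118, a laboratory stock with white eyes. There were 3 intestine and 2 carcass libraries, and no treatment or transgene. The labels do not list the organs of the carcass. A male carcass without its intestine would hold muscle, nervous system, fat body, epidermis and, unless it was removed, the reproductive tract. The labels are silent on pooling and on whether each library stands for its own set of animals. The p-values therefore reflect the spread among 5 libraries, which may be technical.

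A microRNA hairpin is cut from a longer transcript by Drosha and then by Dicer-1. This leaves a short duplex of a 5p and a 3p arm, one of which is usually kept in Argonaute while the other is degraded. Hairpins that lie close together on one strand are often cut from a single transcript. The mir-972 to mir-979 hairpins are known as evolutionarily young genes whose RNAs are found in the testis, one of several fast-changing testis clusters of the fly. The individual targets of these microRNAs are not described here.

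In the BDGP6.54 annotation the 8 hairpins stand on the plus strand of the X chromosome between positions 19551152 and 19561931, a span of 10780 bases. The distances between them divide the span into 3 stretches. The first holds mir-972 (FBgn0262181, 19551152 to 19551242), mir-973 (FBgn0262201, 19551528 to 19551628) and mir-974 (FBgn0262216, 19551678 to 19551778). After 6974 bases follow mir-975 (FBgn0262228, 19558753 to 19558843), mir-976 (FBgn0262341, 19558895 to 19558991) and mir-977 (FBgn0262251, 19559022 to 19559120). These 6 hairpins lie outside annotated protein-coding genes, and genes of other types were not looked at. After another 2115 bases come mir-978 (FBgn0262314, 19561236 to 19561327) and mir-979 (FBgn0262301, 19561837 to 19561931).

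The last 2 hairpins lie inside Grip84, a gene for a gamma-tubulin complex protein that is read from the opposite strand. mir-978 overlaps the 3′ UTR of 1 of the 6 annotated Grip84 transcripts and lies beyond the end of the other 5. mir-979 lies in an intron of 5 of these transcripts and in the 3′ UTR of 1. The strand setting of the authors' counting is not given, so reads of these hairpins and short pieces of Grip84 RNA cannot be told apart by the counts alone. The span also holds 4 hairpins with other names, mir-9369, mir-2499, mir-4966-1 and mir-4966-2, all on the plus strand, which makes 12 in all.

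Levels are given as counts per 1e6 microRNA reads (CPM) after scaling by trimmed mean of M-values (TMM) factors, which adjust each library for its composition, and are called TMM-scaled CPM. A read covers a whole mature arm, and the 16 arms are annotated at 21 to 25 nt, so levels were compared between arms without a correction for length. The efficiency with which each sequence was ligated is not known, so a ratio between different arms may hold a part due to cloning. The tables held 547937, 368352 and 329424 microRNA reads in intestine 1, 2 and 3, and 1654625 and 3038873 in carcass 1 and 2. A count of 3 reads is about the upper 95% limit on the mean where 0 reads are counted. It is 5.48, 8.14 and 9.11 CPM (on library totals) in the intestine libraries and 1.81 and 0.987 in the carcass libraries. No molecular identifiers were used, so all intervals and limits describe counting error alone.

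mir-978 was the most abundant hairpin of the cluster in the carcass, and its reads came mainly from one arm. It gave 494 reads in carcass 1 and 1025 in carcass 2, or 256 ± 31.3 TMM-scaled CPM (SD, n = 2), and it held 32.7 ± 4.34% of the cluster's carcass reads. mir-977 followed with 131 ± 10.6 CPM (293 and 456 reads) and mir-976 with 129 ± 22.8 CPM (307 and 417 reads). These 2 could not be ordered, because mir-976 was higher in carcass 1 and mir-977 in carcass 2. mir-975 had 86.9 ± 8.44 CPM (196 and 298 reads), mir-974 had 64.2 ± 4.40 CPM (129 and 248 reads) and mir-973 had 52.3 ± 3.61 CPM (105 and 202 reads). From mir-976 down to mir-972, each hairpin was above the next in both libraries, with ranges that did not overlap.

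The least abundant were mir-972, with 33.5 ± 12.9 CPM, and mir-979, with 29.2 ± 7.11 CPM. mir-972 gave 90 reads in each carcass library, and mir-979 gave 51 and 126, so that mir-972 was the higher in carcass 1 and mir-979 in carcass 2. Neighbours on the chromosome thus included both the highest and a low value, as mir-978 exceeded mir-979 by far in both libraries although only 509 bases separate them. By stretch, mir-972 to mir-974 held 19.5% and 18.9% of the cluster's reads in carcass 1 and 2. The stretch mir-975 to mir-977 held 47.8% and 40.9%, and mir-978 with mir-979 held 32.7% and 40.2%.

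**Figure D1:**
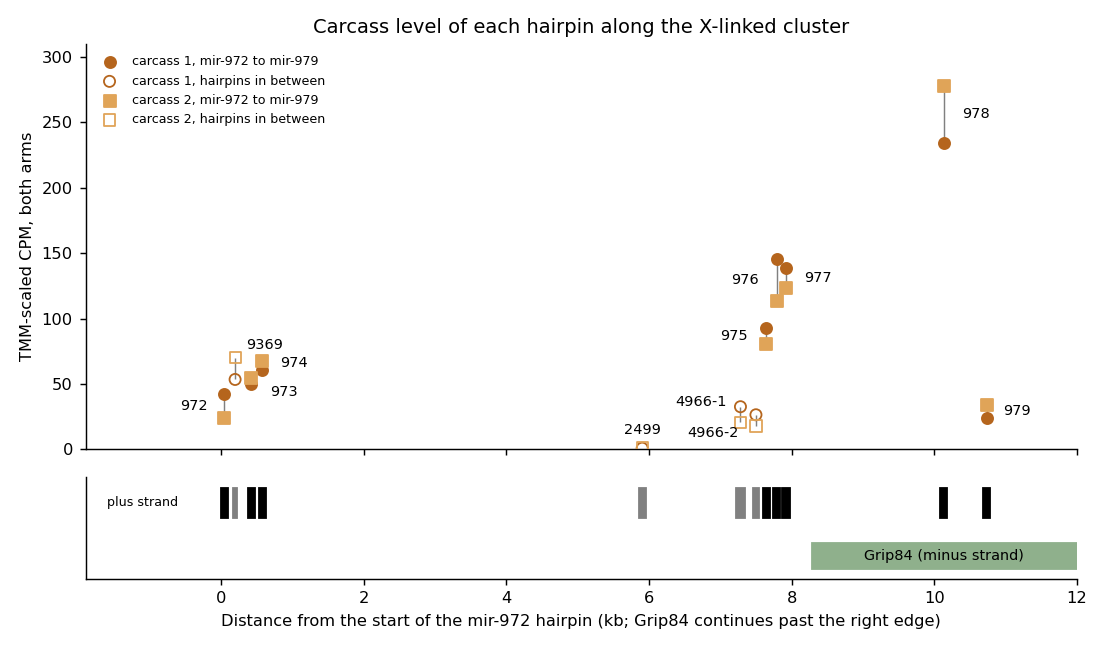
Carcass level of each hairpin (TMM-scaled CPM, both arms summed) against its distance in kb from the start of mir-972; circles are carcass 1, squares are carcass 2, and open symbols are the 4 hairpins with other names. The lower strip draws the hairpins and the Grip84 gene to scale, and mir-978 stands highest, at 234 CPM in carcass 1 and 278 in carcass 2.

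Summed over its 16 arms, the cluster gave 1665 reads in carcass 1 and 2862 in carcass 2, which is 0.101% and 0.0942% of their microRNA reads. It was a minor part of the carcass population even at its strongest member: miR-978-3p ranked 100 of 479 arms by mean carcass level, and miR-975-3p, the weakest, ranked 316.

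The arm that supplied most reads changed from hairpin to hairpin. Over both carcass libraries together the 3p arm led in 4 hairpins (mir-972, mir-976, mir-977 and mir-978) and the 5p arm in the other 4 (mir-973, mir-974, mir-975 and mir-979). In 7 of the 8 the same arm led in both libraries. Shares are given with 95% Wilson intervals. Values near 0 or 100% mean that one strand of the duplex made up almost all reads.

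mir-975 was the most one-sided. Its 5p arm had 194 and 294 reads in carcass 1 and 2 and its 3p arm 2 and 4, so that the 3p arm held 1.02% (0.28 to 3.64) and 1.34% (0.523 to 3.40). mir-976 leaned to the other side, with 96.7% (94.1 to 98.2) and 96.6% (94.4 to 98.0) from the 3p arm. mir-972 had 5 reads from the 5p arm and 85 from the 3p arm in each carcass library, a 3p share of 94.4% (87.6 to 97.6) in both. In mir-978 the 3p arm held 91.7% (88.9 to 93.8) and 91.2% (89.3 to 92.8). In mir-974 the 3p arm was the rare one, at 6.20% (3.18 to 11.8) and 8.47% (5.60 to 12.6). Within each of these 5 hairpins, the intervals of the libraries overlapped.

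Both arms were well represented in mir-973, whose 3p arm held 33.3% (25.05 to 42.8) in carcass 1 and 29.2% (23.4 to 35.8) in carcass 2. mir-977 differed between the libraries. Its 5p arm gave 63 reads in carcass 1 and 58 in carcass 2, although carcass 2 was the deeper, and its 3p share was 78.5% (73.4 to 82.8) and 87.3% (83.9 to 90.03), intervals that did not overlap. mir-979 had no settled major arm. Its 3p arm held 54.9% (41.4 to 67.7) of 51 reads in carcass 1 and 39.7% (31.6 to 48.4) of 126 reads in carcass 2, with overlapping intervals.

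**Figure D2:**
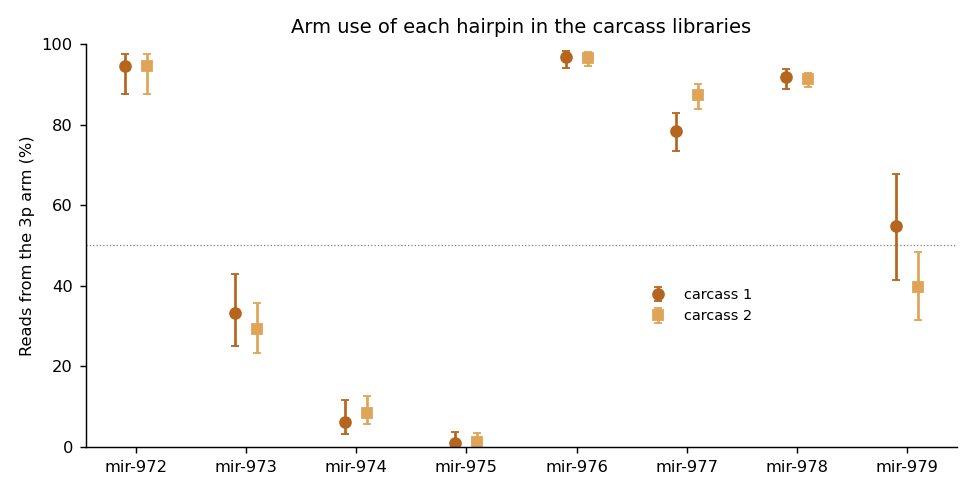
Share of each hairpin's reads that came from the 3p arm (%), in carcass 1 (circles) and carcass 2 (squares), with 95% Wilson intervals; the dotted line marks 50%. mir-972, mir-976, mir-977 and mir-978 lie above it, mir-973, mir-974 and mir-975 below it, and mir-979 on either side.

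The carcass libraries did not carry the 8 hairpins in a fixed proportion. Ratios of carcass 2 to carcass 1 were taken on library totals, with exact 95% counting intervals, and they compare these 2 libraries only. The whole cluster stood at 0.936 (0.881 to 0.995). miR-972-3p was lower in carcass 2 at 0.544 (0.398 to 0.744), as were miR-977-5p at 0.501 (0.345 to 0.728), miR-976-3p at 0.739 (0.634 to 0.861) and miR-975-5p at 0.825 (0.686 to 0.994). miR-979-5p was higher at 1.80 (1.12 to 3.01) and miR-978-3p slightly so at 1.12 (1.003 to 1.26). The intervals of the other 10 arms included 1. Departures beyond counting error were not confined to the cluster. Over arms with at least 10 reads in them together, the 2 carcass libraries had a chi-square statistic of 179 for each degree of freedom.

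By stretch the ratio was 0.907 (0.789 to 1.04) for mir-972 to mir-974, 0.801 (0.731 to 0.878) for mir-975 to mir-977 and 1.15 (1.04 to 1.28) for mir-978 with mir-979. Over all 222 arms that passed the low-count filter the median ratio was 1.04, with a 10th percentile of 0.751 and a 90th of 1.51. Among members with at least 90 carcass reads, miR-972-3p, miR-976-3p and miR-977-5p lay below that range and miR-979-5p above it. Of marker lists for other tissues, that of neuron and eye (mir-124, mir-210 and mir-263b) had a ratio of 1.48, and that of muscle (mir-1 and mir-133) 0.935. Of the testis lists given below, mir-959 to mir-964 had 0.899 and the second X-linked cluster 1.11. The mir-310 cluster had 0.829. The part of other tissues in the ratios of the members was not tested.

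**Figure D3:**
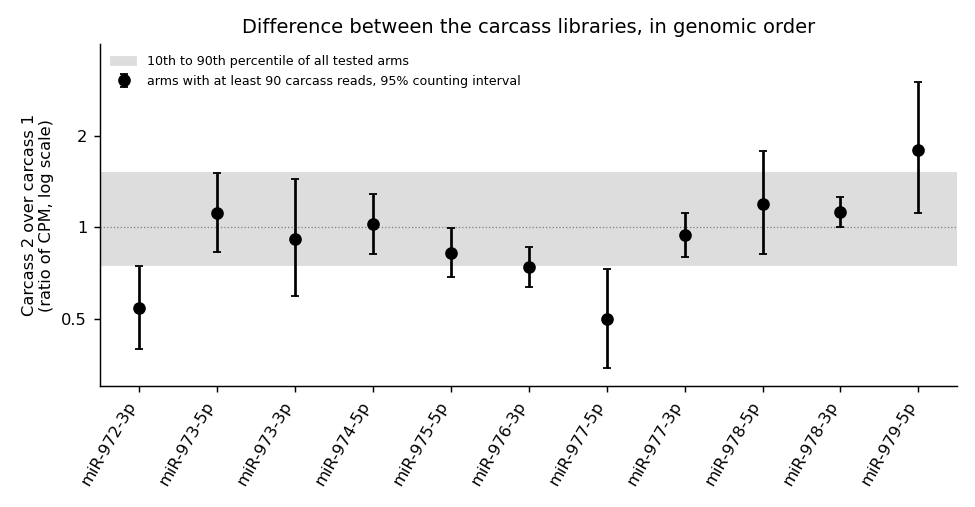
Ratio of carcass 2 to carcass 1 (CPM on library totals, log scale) for the 11 arms with at least 90 carcass reads, in genomic order, with exact 95% counting intervals; the grey band spans the 10th to the 90th percentile of all 222 tested arms. miR-972-3p (0.544) and miR-977-5p (0.501) lie below the band and miR-979-5p (1.80) above it.

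In the intestine the whole cluster came to 14 reads. Intestine 1 held 7, intestine 2 held 2 and intestine 3 held 5. Scaled to library totals, these were 12.8 (5.14 to 26.3), 5.43 (0.658 to 19.6) and 15.2 (4.93 to 35.4) CPM, with exact 95% Poisson intervals, and the carcass libraries had 1006 (959 to 1056) and 942 (908 to 977). The mean over intestine libraries came to 1.14 ± 0.52% of the carcass mean (SD, n = 3). The intervals of the intestine libraries overlapped each other and lay far below those of the carcass. With bulk tissue, fewer cells that make these RNAs and less RNA per cell cannot be told apart.

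At the carcass level, on TMM-scaled library sizes, the 3 intestine libraries together would have held 843 reads of the cluster. The 14 reads counted were spread over 6 arms of 5 hairpins. miR-978-3p gave 2 reads in intestine 1 and 3 in intestine 3, and miR-974-5p gave 1 read in each intestine library, the only arm found in all 3. miR-973-5p gave 1 read in intestine 1 and 1 in intestine 3, and miR-976-3p gave 1 in intestine 1 and 1 in intestine 2. miR-973-3p and miR-979-5p gave 1 read each, both in intestine 1. Neither arm of mir-972, mir-975 or mir-977 was seen, although at the carcass level there would have been 90.9 reads of miR-975-5p and 117 of miR-977-3p. With 14 reads in all, an order of hairpins within the intestine could not be drawn.

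**Figure D4:**
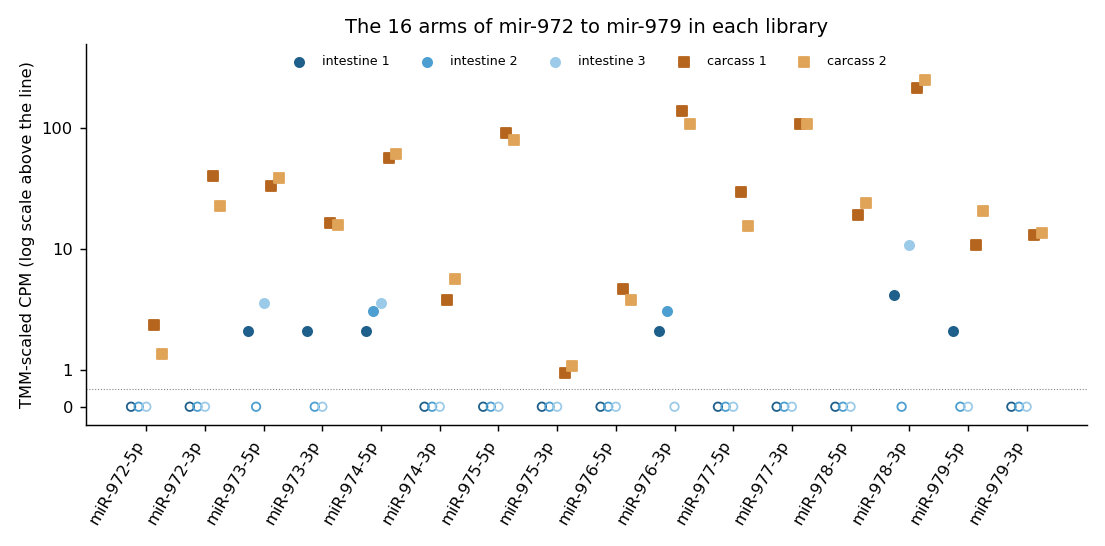
TMM-scaled CPM of the 16 arms in genomic order, in 3 intestine libraries (circles) and 2 carcass libraries (squares); the axis is logarithmic above the dotted line, and open circles below it are libraries without a read. For each of the 16 arms both carcass libraries lie above all 3 intestine libraries.

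The design asked which microRNAs differ between intestine and carcass. All members that could be tested were lower in the intestine, but the filter on low counts favoured that direction. Of the 16 arms, 10 passed the low-count filter, and they passed it through the carcass libraries alone, as none had more than 5 intestine reads. All 10 were called lower by edgeR's quasi-likelihood test at an adjusted p of 0.05 over 222 arms, where 48.2% of arms were called lower. The median of their log2 fold changes was -6.97 (-4.30 once the arms with no intestine read are placed at their bound), against -0.50 over all 222 arms. Since a member low in the carcass was never tested, the count is no support for a statement on the cluster as a whole. Every intestine library was below every carcass library in 16 of 16 arms, tested or not, and in 35.7% of all 479 arms. An arm without intestine reads meets this with any read in both carcass libraries, as did 10 of the 16 members. Only 406 of the 479 arms had a read in any library, and the rest could not meet it.

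The scaling moved the calls over all arms. With TMM factors 77 arms were higher and 107 lower in the intestine, with RLE factors 62 and 119, and with library totals 50 and 126, so that 41.8%, 34.3% and 28.4% of the called arms were higher. The median over all arms was -0.87 with RLE factors and -1.02 with library totals. The 10 tested members stayed lower under each. Their median moved in the same direction, from -6.97 to -7.18 with RLE factors and -7.27 with library totals.

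Among the 5 tested arms with intestine reads, miR-978-3p rested on the most reads. It had 453 and 935 reads in the carcass libraries, or 234 ± 27.8 TMM-scaled CPM (SD, n = 2), and 5.01 ± 5.46 in the intestine (SD, n = 3), a log2 fold change of -5.63 (SE 0.43, edgeR adjusted p = 5.59e-14). Its ratio on summed reads was 51.7-fold lower (22.1 to 159), and 96.1-fold without intestine replicate 3, which held 3 of its 5 reads. miR-976-3p had 297 and 403 carcass reads, or 125 ± 22.1 CPM, and was 65.2-fold lower (18.0 to 539). The fitted log2 difference was -6.01 (SE 0.54, edgeR adjusted p = 2.28e-12), and -6.66 without intestine replicate 2.

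miR-974-5p, with 121 and 227 carcass reads (59.5 ± 3.05 CPM), was 21.6-fold lower (7.33 to 105; edgeR adjusted p = 2.47e-08). miR-973-5p, with 70 and 143 (36.0 ± 4.01 CPM), was 19.8-fold lower (5.42 to 165; edgeR adjusted p = 6.33e-06). The fitted log2 difference was -4.22 and became -4.96 without intestine replicate 3. miR-973-3p, with 35 and 59 carcass reads (16.3 ± 0.40 CPM), was 17.5-fold lower (3.07 to 699; edgeR adjusted p = 0.00255). Its only intestine read lay in intestine replicate 1, and without that library it was at least 3.26-fold lower. The counting intervals of these 5 arms overlapped, so the folds gave no order among them.

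The other 5 tested arms had no intestine read, so each fold is a lower bound, computed from 3 reads summed over the intestine libraries. It leaves out counting error in the carcass. miR-977-3p, with 230 and 398 carcass reads (108 ± 0.63 CPM), was at least 39.0-fold lower, and miR-975-5p, with 194 and 294 (85.8 ± 8.54 CPM), at least 30.3-fold lower. miR-972-3p was at least 10.6-fold lower from 85 reads in each carcass library. The rarer arms miR-978-5p (41 and 90 reads) and miR-977-5p (63 and 58 reads) were at least 8.13-fold and 7.51-fold lower. The size of such a bound follows the carcass level, so it does not rank the arms. The edgeR adjusted p of these 5 arms ran from 3.98e-12 for miR-977-3p to 0.000145 for miR-977-5p.

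The 6 arms below the filter were weakly covered. miR-979-5p (23 and 76 carcass reads) had 1 intestine read and was 18.4-fold lower (3.23 to 736). That read lay in intestine replicate 1, without which the arm was at least 3.43-fold lower, and without carcass replicate 2 the ratio was 11.8. miR-979-3p (28 and 50 reads) was at least 4.84-fold lower, miR-974-3p (8 and 21 reads) at least 1.80-fold and miR-976-5p (10 and 14 reads) at least 1.49-fold. miR-972-5p had 5 reads in each carcass library and miR-975-3p had 2 and 4. At the carcass level they would have given 1.86 and 1.12 intestine reads, so a difference in either was not detectable at this depth. With all arms of at least 1 read entered in the edgeR fit, 145 of 406 arms were called lower in the intestine. Of the 16 members 14 were called lower, and these 2 were not (edgeR adjusted p = 0.190 for miR-972-5p and 0.350 for miR-975-3p).

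**Figure D5:**
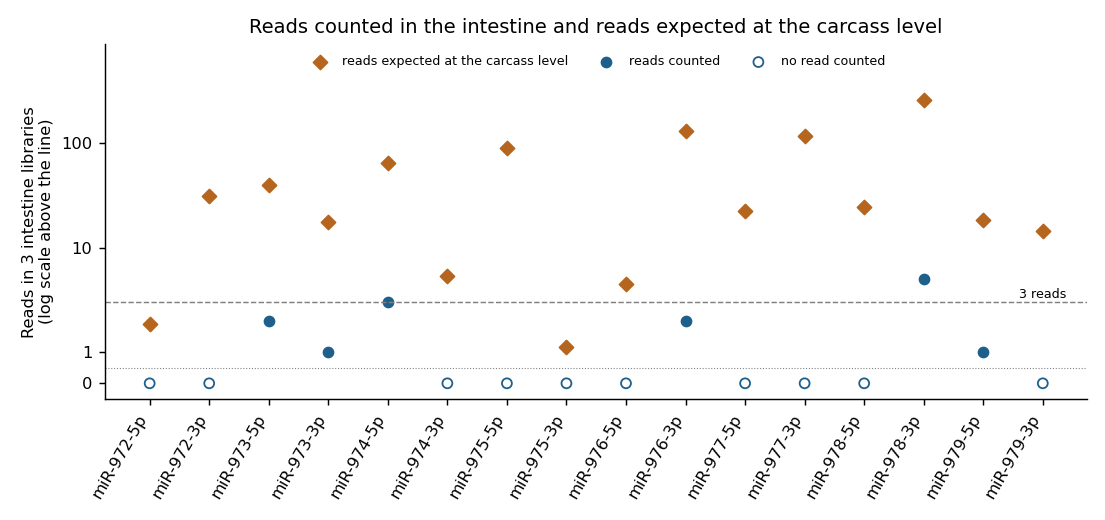
Reads of each arm counted in the 3 intestine libraries together (blue; open where none was counted) and the number expected had the intestine held the carcass level (brown diamonds), on an axis that is logarithmic above the dotted line. miR-972-5p and miR-975-3p, with 1.86 and 1.12 expected reads, fall under the dashed line at 3 reads.

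Of the 4 hairpins of the span that bear other names, 3 had carcass reads in number and mir-2499 had hardly any. mir-9369, between mir-972 and mir-973, gave 113 and 258 carcass reads (61.8 ± 11.7 CPM), and stood below mir-974 in carcass 1 and above it in carcass 2. Its 5p arm had 1 intestine read and was 54.0-fold lower (9.62 to 2141; edgeR adjusted p = 9.04e-08). That read lay in intestine replicate 1, and without this library the arm was at least 10.1-fold lower. mir-4966-1 gave 69 and 76 carcass reads and mir-4966-2 gave 56 and 66, with 1 intestine read between them. They bear one name as copies and may share reads, so their separate values are uncertain. Their carcass ratios, 0.600 (0.427 to 0.843) and 0.642 (0.443 to 0.933), lay below 1, as did those of mir-975, mir-976 and mir-977 beside them. mir-2499, alone in the wide gap, gave 2 and 4 carcass reads and none in the intestine, too few for a difference to be detectable. Together the 4 hairpins had 644 carcass and 3 intestine reads.

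Other microRNAs known from the testis had intestine levels of a similar order. The mir-959 to mir-964 cluster on chromosome 2L stood at 1.48 ± 0.11% of its carcass level (SD, n = 3), and the second X-linked cluster, mir-982, mir-303, mir-983 and mir-984, at 1.22 ± 0.30%. The range over intestine libraries was 0.557 to 1.56% for mir-972 to mir-979 and overlapped both, at 1.36 to 1.57% and 0.964 to 1.55%. The mir-310 cluster, with mir-2498, mir-991 and mir-992, stood higher at 2.64 ± 0.20% (2.41 to 2.77%), though the difference was not tested. In these 3 lists 11 of 11, 10 of 10 and 11 of 11 tested arms were called lower (median log2 fold change -5.30, -5.39 and -4.52, or -5.08, -4.91 and -4.44 with arms at their bound), again mostly through the carcass counts. Over all 222 tested arms 48.2% were called lower. By mean carcass level miR-964-5p, miR-984-5p and miR-310-3p led their lists, with 429 and 636, 381 and 926, and 812 and 1165 reads. miR-963-5p, with 434 and 620 reads, was above miR-964-5p in carcass 1.

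Low intestine values were not confined to testis microRNAs. Those of neurons and the eye stood at 0.79 ± 0.19% of the carcass level, with 4 of 4 tested arms lower, whereas those of muscle stood at 23.7 ± 4.69%, also with 4 of 4 lower (48.2% of all 222 tested arms were called lower). Within the muscle list miR-133-3p stood at 1.03% and miR-1-3p at 24.7%. The intestine list (mir-958, mir-956 and mir-314) was higher in 6 of 6 arms, where 34.7% of all 222 tested arms were called higher. It was chosen with earlier results of these data known, so its direction is no independent check. What part of the intestine reads of the cluster came from other tissue left on the intestines was not tested.

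The other X-linked arms were mixed. Of all 87 of them 34 were tested, of which 8 were called higher and 20 lower in the intestine, with a median log2 fold change of -4.33 (-4.09 with arms at their bound), and their sum stood at 61.5 ± 4.98% of the carcass level (SD, n = 3). These include the 4 other hairpins of the span, the second X-linked testis cluster and mir-210. Without the span and the lists 20 were tested, of which 8 were called higher and 6 lower in the intestine (34.7% and 48.2% of all 222), with a median log2 fold change of 0.33. The sum over all 67 such arms stood at 98.4 ± 7.96% of the carcass level (SD, n = 3), and miR-12-5p and miR-304-5p led it in the carcass. Every tested arm taken out with the span and the lists was called lower. The lists were chosen with earlier results of these data known, so the removal itself moved the median and the sum.

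The arms whose profile was most like that of the summed cluster were looked for among the 212 tested arms of other genes. Likeness was the distance between log2(CPM + 1) values over the 5 libraries after each profile's own mean was removed. The nearest were miR-124-3p (distance 0.815), a microRNA of neurons, miR-263b-5p (0.818), known from sense organs, miR-133-3p (0.848), known from muscle, miR-1015-3p (0.995) and miR-960-3p (1.01), of the mir-959 to mir-964 cluster. None of these 5 lies on the X chromosome. With 5 libraries of 2 tissues the measure reflects mainly the size of the tissue difference, and for arms without intestine reads, such as miR-960-3p, it also depends on the added 1.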

How the data were processed

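Small RNA libraries of 3 intestine and 2 carcass samples were analysed. The authors deposited 1 table of raw read counts, whole numbers with 1 row for each mature arm. The submitters' processing notes name cutadapt 1.9.1, Bowtie2 2.3.2, featureCounts and Subread 2.0.0. The authors' genome build, annotation, strand setting and handling of multiply matching reads were not given in the sources used here. Totals of 329424 to 3038873 are microRNA reads, not the full depth of a library.

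Rows were matched by name to the BDGP6.54 annotation (473 of 479 rows), whose coordinates are printed; it could not be set against the build behind the counts. The 5p and 3p arms were told apart by position within the hairpin. Groups came from the sample titles. Testing used edgeR 4.0.16 in R 4.3.3 (TMM factors, filterByExpr with minimum count 10 and minimum total 15, quasi-likelihood test, no replicate block, Benjamini-Hochberg adjustment over 222 arms). Each SE was obtained by dividing the size of the log2 fold change by the square root of F. Folds with intervals, bounds and expected reads use reads summed over libraries and TMM-scaled library sizes. Percentages of the carcass level and carcass ratios use library totals. The test was checked on simulated counts drawn from each arm's mean over all libraries, which does not cover arms with almost no intestine reads. No pair of libraries agreed within sampling noise. The nearest, intestine 2 and 3, had a chi-square statistic of 10.9 for each degree of freedom.

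All member arms are named, and of other microRNAs the 5 nearest profiles, the hairpins within 10000 bases, and up to 2 arms per marker list. The members, lists and rules were chosen with earlier results of these data known. Alternatives were RLE factors, library totals, no low-count filter, DESeq2 1.42.0, a replicate block and leaving out each library.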

Additional observations from a re-analysis of the deposited data

How the results depend on the processing

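All 10 tested members stayed lower in the intestine, past the threshold, with RLE factors, library totals, no low-count filter, DESeq2 and without any 1 library. The median log2 fold change of the 10 tested members was -7.18 with RLE factors, -7.27 with library totals and -5.92 with DESeq2, values that depend on how each tool treats arms with no intestine read. Without any 1 library, 10 members stayed called in each case, and the called arms over the whole table numbered 170 to 182, against 184 with all libraries. With a single carcass library, its spread is taken from the intestine libraries. The same-numbered libraries did not deviate together (r across arms 0.03 and 0.02 for numbers 1 and 2), and the labels do not say that the numbers pair them. With the replicate block 180 arms were called, and 9 members: miR-973-3p was not called (log2 fold change -3.63, edgeR adjusted p = 0.0606; over all alternatives 7.46e-06 to 0.0606). With no filter 406 arms were tested and 206 called, 61 higher and 145 lower in the intestine.

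The summed intestine level of the cluster, 1.14% of the carcass level on library totals, was 1.66% with TMM-scaled and 1.27% with RLE-scaled library sizes, and 0.935 to 1.43% without any 1 library. With 2 carcass libraries, leaving 1 out gives the value of the other, so it is no test of the shares. The 5p share of mir-979, 52.7% as a mean of the libraries, was 45.1% in carcass 1, 60.3% in carcass 2 and 55.9% on summed reads, so its leading arm depends on the library. The depth of the intestine libraries limits every fold, as the 14 reads allow no ranking of members by tissue difference.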
